A study of Mus musculus with 4 samples.

Results

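The replication-dependent histone genes encode the bulk supply of the linker histone H1 and of the core histones H2A, H2B, H3 and H4, and they were compared between mouse small intestinal (SI) organoids carrying a miR-181a-5p mimic and organoids carrying a miRNA mimic control. The members were all protein-coding genes of the annotation whose symbol starts with Hist1h, Hist2h, Hist3h or Hist4h, or with the newer names of the same genes, which gave 67 of the 55487 genes listed in the deposited tables. There were 6 H1, 18 H2A, 18 H2B, 12 H3 and 13 H4 genes. By position, 54 lay in the Hist1 cluster on chromosome 13, 10 in the Hist2 cluster on chromosome 3, 2 in Hist3 on chromosome 11 and 1, Hist4h4, on chromosome 6. Membership followed from the symbol alone, but the family was picked with earlier results of these data known.

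The organoids were grown from mouse intestinal crypts in a commercial organoid growth medium, and the strain, sex and age of the mice that gave them are not given in the sources used here. The 2 control libraries (control 1 and control 2) came from organoids infected with a lentivirus expressing a control mimic, and the 2 mimic libraries (mimic 3 and mimic 4) from organoids infected with a lentivirus expressing miR-181a-5p. All 4 cultures therefore carried a lentiviral insert and had been selected in puromycin at 2 µg/ml. Separate infections for the 2 libraries of each group are not stated in the labels, so p-values measure the spread between these libraries, which may be technical.

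Most messenger RNAs end in a poly(A) tail, but replication-dependent histone mRNAs end in a short stem-loop that is bound by the stem-loop binding protein (Slbp) and is cut from the precursor with the help of the U7 small nuclear RNA. Most of these genes have no introns, and they sit in clusters and are transcribed mainly while DNA is being copied in S phase, when new DNA has to be packed into nucleosomes of an H3-H4 tetramer and H2A-H2B dimers, with H1 on the linker DNA. In the intestinal epithelium this demand falls on the dividing stem and transit-amplifying cells of the crypt, while differentiated cells rely more on replacement variants such as H3.3, which are made from ordinary polyadenylated mRNAs outside S phase.

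The treatment is defined by the mature sequence of miR-181a-5p, which is shown with its seed (bases 2 to 8) in capitals. It is the RefSeq entry at chr1:137966468-137966490 on the plus strand of GRCm38.p6. The matching target site, TGAATGT, was searched on the transcript strand only and was present in a GENCODE transcript of 3 of the 67 histone genes, Hist1h1d, Hist1h1e and Hist1h3b, against 31.9% of the 21951 protein-coding genes. Histone transcripts are short, and a match is a description of letters rather than of a working site.
mmu-miR-181a-5p: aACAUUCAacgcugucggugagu

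The stem-loop is the feature that ties the members together at their 3′ ends. The pattern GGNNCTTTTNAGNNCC, read on the transcript strand, was found in a GENCODE transcript of 44 of the 67 members and of 78 of the 21951 protein-coding genes, or 0.355%. One example per class is shown with 5 bases on either side and the 16 bases of the pattern in capitals, all in GENCODE M21 transcripts on GRCm38. Hist1h1c lies at chr13:23739507-23739532 on the plus strand, Hist1h2ag at chr13:22042478-22042503 on the minus strand, Hist1h2bj at chr13:22043633-22043658 on the plus strand, Hist1h3b at chr13:23752815-23752840 on the plus strand, Hist1h4h at chr13:23531453-23531478 on the plus strand and Hist1h4b at chr13:23757361-23757386 on the plus strand.
Hist1h1c: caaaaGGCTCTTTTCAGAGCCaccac
Hist1h2ag: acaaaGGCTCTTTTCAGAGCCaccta
Hist1h2bj: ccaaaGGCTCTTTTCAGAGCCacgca
Hist1h3b: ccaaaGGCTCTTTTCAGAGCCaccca
Hist1h4h: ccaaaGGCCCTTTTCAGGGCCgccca
Hist1h4b: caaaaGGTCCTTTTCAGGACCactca

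In the annotation 62 of the 67 members had a single exon, and the 5 exceptions, with 2 exons, were the H2B genes Hist1h2bc, Hist1h2be, Hist1h2bp, Hist1h2bq and Hist1h2br. The first stem-loop form, as in Hist1h1c, was present in 26 members from H1, H2A, H2B and H3 and in no H4 gene. The form of Hist1h4h was present in 7 members and that of Hist1h4b in 2, all of them H4 genes. For 22 members the longest transcript that holds the stem-loop ended within 100 bases of it, and for 22 it ran further. The other 23 had no match in an annotated protein-coding transcript, which says only that these letters are not in the annotation's window.

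The libraries held between 31104884 and 38111731 expected counts, of which the 67 histone genes took 0.486% to 0.726%. Against the labelled cell type, all 16 epithelial markers were detected, and their summed normalized CPM (counts scaled to the corrected size of the library) ran from 5544 to 6398, with Epcam, an epithelial adhesion molecule, at 825 to 890. The summed level of 7 fibroblast markers was 0.37 to 0.86 CPM, that of 7 leukocyte markers 3.99 to 6.21 and that of 4 endothelial markers 0.42 to 0.90. The labels describe a poly(A) selection, whereas the methods of the study describe total RNA depleted of ribosomal RNA. RNAs that carry no poly(A) tail were abundant in every library: Rn7sk, the scaffold RNA of the P-TEFb inhibitory complex, stood at 12254 and 10201 CPM in control libraries and 10549 and 9740 CPM with the mimic, and Rpph1, the RNA of ribonuclease P, at 2266, 2056, 2133 and 2215 CPM.

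Histone mRNA was higher in both mimic libraries than in both controls. The summed level over the 67 members was 6113 and 4976 normalized CPM in control 1 and control 2, and 7212 and 7199 in mimic 3 and mimic 4. The mean was 1.30-fold higher with the mimic (5545 ± 804 against 7206 ± 9.36 CPM, SD, n = 2 each). The 2 mimic libraries were close to each other, whereas the controls differed by more than 1000 CPM, and control 2 was the lowest library for every class. Summed TPM, which is corrected for transcript length, were 13554, 11361, 16805 and 18380, a 1.41-fold higher mean. With 2 libraries a group an exact permutation test cannot give a p below 0.333, so no test was run on the sums. In bulk RNA, a change in the share of cells in S phase and a change in histone mRNA per cell cannot be told apart.

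Gene by gene, 63 of the 67 members passed the filter on low counts and were tested. Of these, 60 had a log2 fold change above 0, against 48.6% of the 17155 genes tested. The median was 0.47 (range −1.33 to 1.46), compared with −0.01 over all tested genes. At an adjusted p below 0.05, 17 members rose and none fell by the quasi-likelihood test of edgeR, where 1.28% of all tested genes were called higher and 2.29% lower. At an unadjusted p below 0.05 there were 46 members higher and 1 lower, against 11.8% and 13% of all tested genes. The exact test of edgeR called 29 higher and 1 lower, where it called 4.44% of all genes higher, and DESeq2 called 31 higher and 0 lower, where it called 2.18% of all genes higher. Both mimic libraries lay above both controls for 54 members, against 28.9% of tested genes, and below both for 1, against 29.5%. The changes were mostly small: only Hist2h2aa1, Hist1h2an and Hist1h2bh both passed and reached a 2-fold change, and none fell by as much, where 0.589% of all tested genes passed upwards and 1.47% downwards. When 1 library was left out, the median log2 fold change of members was 0.63 without control 1 and 0.31 without control 2. It was 0.49 without mimic 3 and 0.49 without mimic 4. Over all tested genes these medians were −0.00034, −0.017, −0.015 and −0.023. Some calls were lost in these fits, as given below for each gene.

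**Figure D1:**
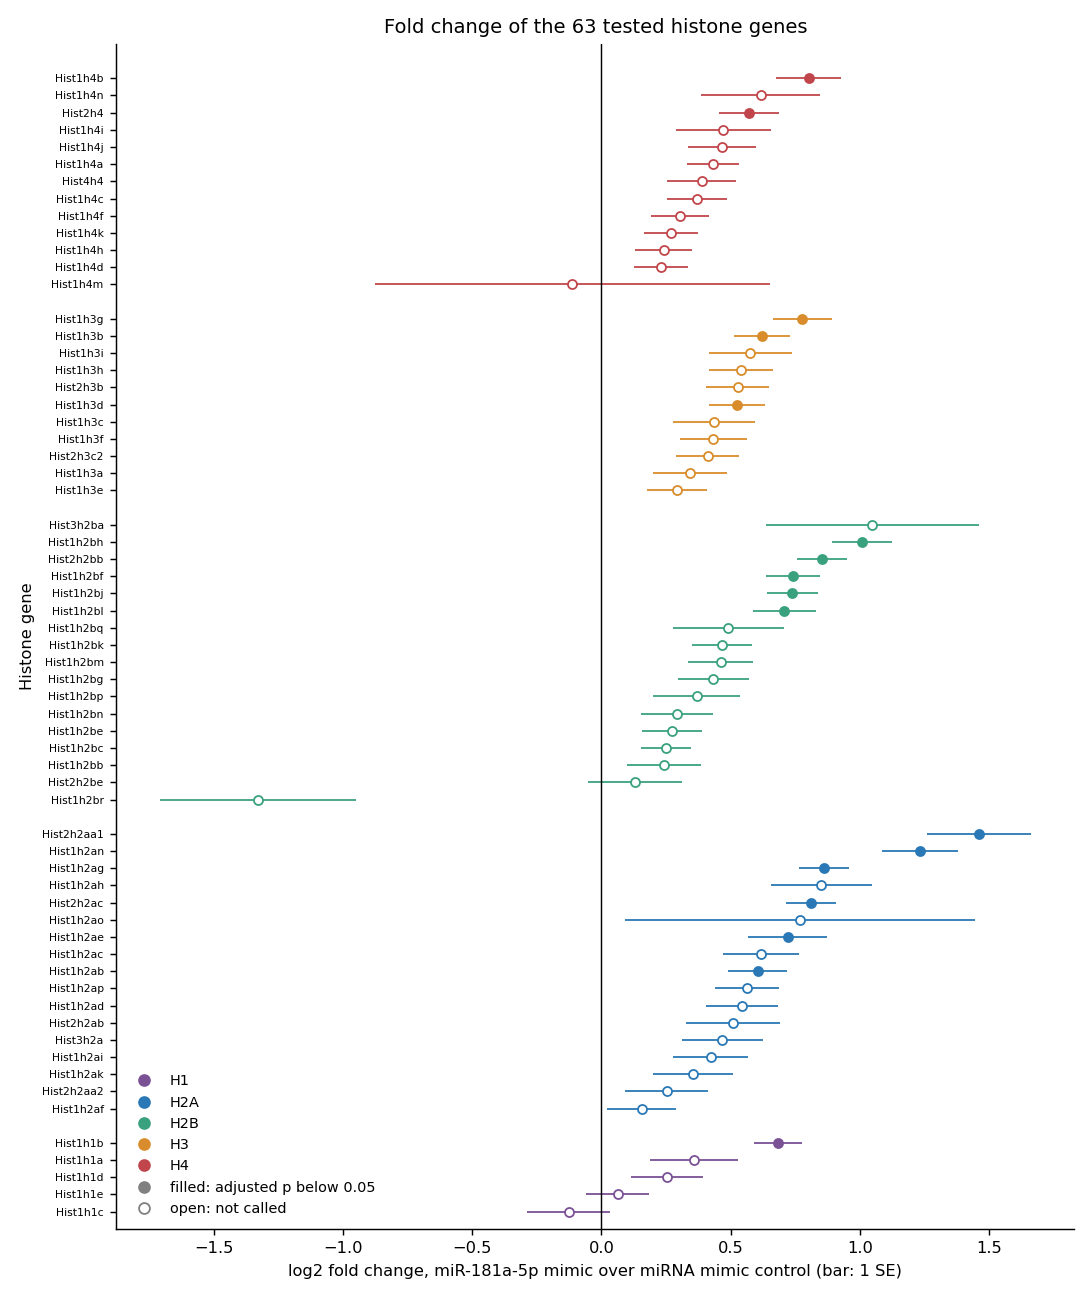
Log2 fold change (mimic over control) of each of the 63 tested histone genes, grouped by class, with bars of 1 SE; filled points have an adjusted p below 0.05. The points lie to the right of 0 for 60 genes, and the 17 filled points are all on that side, while Hist1h2br stands alone at −1.33.

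The 4 untested members were at or near 0. Hist1h1t, the testis linker histone, had no more than 2 counts in any library. Hist1h2aa and Hist1h2ba, the divergent testis pair, were at 0 in all 4. Hist2h3c1 had 0, 0, 5.91 and 80.02 expected counts, and none of its sequence is specific to it.

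Among the core histones, all 4 classes had higher summed levels with the mimic. The H2A sum was 916 and 723 CPM in control libraries and 1143 and 1191 CPM with the mimic, 1.42-fold higher on average. The H2B sum was 1305 and 1070 against 1655 and 1647 CPM (1.39-fold), the H3 sum 913 and 735 against 1131 and 1169 CPM (1.39-fold), and the H4 sum 1486 and 1293 against 1819 and 1745 CPM (1.28-fold). None of the 4 core classes overlapped between groups.

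**Figure D2:**
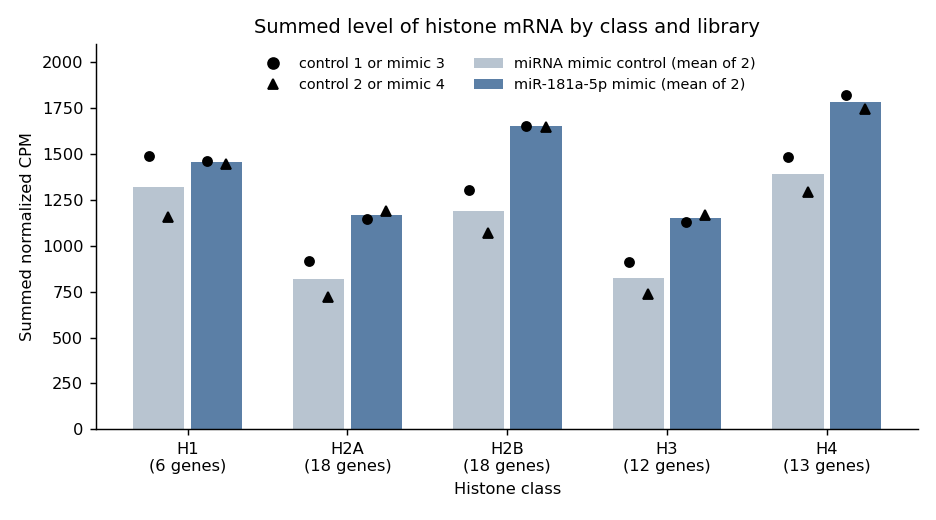
Summed normalized CPM of the members of each histone class in each library (points) with the mean of the 2 libraries of a group (bars). In H2A, H2B, H3 and H4 both mimic points lie above both control points, whereas in H1 the control 1 point at 1492 lies above both mimic points.

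H2A proteins pair with H2B at the outer faces of the nucleosome. All 17 tested H2A genes had a log2 fold change above 0, with a median of 0.61, and 6 rose. Hist2h2ac, at chr3:96220361-96220880 on the minus strand, was at 35.8 and 35.7 CPM in control libraries and 62.0 and 63.5 CPM with the mimic. The gap between groups was far wider than the gap within them, and the log2 fold change was 0.81 ± 0.10 (SE, adjusted p = 0.0103). Hist1h2ag, at chr13:22042460-22042944 on the minus strand, was at 42.3 and 40.1 against 75.1 and 74.5 CPM (log2 fold change 0.86 ± 0.10, adjusted p = 0.00869). Hist1h2ab was at 105 and 86.6 against 148 and 144 CPM (0.61 ± 0.11, adjusted p = 0.0388), and Hist1h2ae at 28.9 and 21.4 against 41.8 and 41.3 CPM (0.72 ± 0.15, adjusted p = 0.0496). Neither of these 2 genes overlapped between groups, but both calls were lost without mimic 3, and that of Hist1h2ae also without mimic 4.

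The other 2 H2A calls were the largest changes among the called members and belong to genes with little sequence of their own. Hist1h2an, at chr13:21786826-21787218, was at 15.02 and 11.8 against 32.03 and 31.01 CPM, a log2 fold change of 1.23 ± 0.15 (adjusted p = 0.0101). Only 16.7% of the 100-base windows of its transcript occur in no other gene. Hist2h2aa1, at chr3:96245497-96246082, was at 13.8 and 11.6 against 41.7 and 28.2 CPM, a log2 fold change of 1.46 ± 0.20 (adjusted p = 0.0150). None of its windows is unique, and its neighbour Hist2h2aa2 held most of the reads, at 299 and 219 against 280 and 336 CPM. The 2 genes together were at 312 and 230 against 322 and 364 CPM, 1.26-fold higher. The part of the read division in the Hist2h2aa1 change was not tested. Of the 3 H2A genes with the highest mean TPM, Hist1h2ab (390 TPM) was among the calls above. The others were not called: Hist2h2aa2 (800 TPM) had a log2 fold change of 0.25 ± 0.16 (adjusted p = 0.367) and Hist1h2ap (468 TPM) 0.56 ± 0.12 (adjusted p = 0.0537). Hist1h2af, the lowest of the class among genes with at least 100 counts, had 0.16 ± 0.13 (adjusted p = 0.510).

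H2B is the partner of H2A in the dimer. Of its 17 tested genes, 16 were above 0, the median was 0.46, and 5 rose. Hist1h2bh, at chr13:23541714-23543392 on the minus strand, was at 26.1 and 26.8 CPM in control libraries and 57.2 and 49.2 CPM with the mimic. Its log2 fold change of 1.01 ± 0.12 (adjusted p = 0.00955) was the only one of at least 1 among the called members for which most of the transcript (91.8% of windows) is unique. Hist2h2bb was at 72.3 and 70.7 against 135 and 123 CPM (0.85 ± 0.10, adjusted p = 0.00885), although none of its windows is unique. Hist1h2bf was at 50.5 and 45.2 against 82.2 and 77.9 CPM (0.74 ± 0.10, adjusted p = 0.0163) and Hist1h2bj at 96.8 and 86.6 against 151 and 154 CPM (0.74 ± 0.10, adjusted p = 0.0143). Hist1h2bl was at 46.6 and 40.5 against 76.6 and 65.7 CPM (0.71 ± 0.12, adjusted p = 0.0313), a call lost without mimic 3.

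The 3 H2B genes with the highest mean TPM were not called. Hist1h2bk (mean 687 TPM) had a log2 fold change of 0.47 ± 0.12 (adjusted p = 0.0726), Hist1h2bn (581 TPM) 0.29 ± 0.14 (adjusted p = 0.241) and Hist1h2bb (562 TPM) 0.24 ± 0.14 (adjusted p = 0.329). Hist2h2be, the lowest of the class among genes with at least 100 counts, was at 11.3 and 8.91 against 10.03 and 12.1 CPM (0.13 ± 0.18, adjusted p = 0.694). The 1 member with an opposite direction past the unadjusted threshold, Hist1h2br, was a trace transcript at 1.15 and 0.87 against 0.45 and 0.37 CPM (−1.33 ± 0.38, adjusted p = 0.0950), with 13.6% of its windows unique. Summed with Hist1h2bq, with which it shares sequence, it was at 15.8 and 11.3 against 20.98 and 15.2 CPM, and the groups overlapped. Hist1h2br is named here after its value was seen.

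H3, which forms the core tetramer with H4, had the narrowest range of any class. All 11 tested genes had a log2 fold change above 0 (0.29 to 0.78, median 0.53), all 11 had both mimic libraries above both controls, and all 11 passed an unadjusted p of 0.05. Over all tested genes, 28.9% had both mimic libraries above both controls and 11.8% were higher at that unadjusted p. After adjustment 3 H3 genes rose, where 1.28% of all tested genes did. Hist1h3g was at 33.1 and 29.2 against 51.4 and 55.5 CPM (0.78 ± 0.11, adjusted p = 0.0178). Hist1h3b was at 86.4 and 74.2 against 126 and 121 CPM (0.62 ± 0.11, adjusted p = 0.0313), and Hist1h3d at 30.2 and 27.5 against 41.2 and 41.9 CPM (0.53 ± 0.11, adjusted p = 0.0471), both lost without mimic 3 and the second also without mimic 4. Hist1h3b is 1 of the 3 members that hold the miR-181a-5p site.

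By length-corrected level the leading H3 gene was Hist2h3b (mean 496 TPM), at 143 and 118 against 178 and 198 CPM, with a log2 fold change of 0.53 ± 0.12 (adjusted p = 0.0608). Hist1h3h had 0.54 ± 0.12 (adjusted p = 0.0591) and Hist1h3i 0.58 ± 0.16 (adjusted p = 0.0885). The lowest was Hist1h3e, at 112.1 and 93.3 against 122 and 129 CPM (0.29 ± 0.11, adjusted p = 0.172).

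H4 genes had the highest length-corrected levels of the family, summing to 4205 and 3739 TPM in control libraries and 5155 and 5486 TPM with the mimic. Of 13 tested, 12 were above 0, the median was 0.39 and 2 rose. Hist1h4b, at chr13:23757013-23757409, was at 70.6 and 88.7 against 142 and 135 CPM, and was the called member in which control 2 was well above control 1 (0.80 ± 0.13, adjusted p = 0.0223). Hist2h4, at chr3:96261682-96263311, all of whose windows are unique, was at 61.3 and 51.7 against 87.4 and 80.6 CPM (0.57 ± 0.12, adjusted p = 0.0464), a call lost without mimic 3. The 3 most abundant H4 genes were not called: Hist1h4k (mean 851 TPM) had 0.27 ± 0.10 (adjusted p = 0.170), Hist1h4h (801 TPM) 0.24 ± 0.11 (adjusted p = 0.232) and Hist1h4f (732 TPM) 0.30 ± 0.11 (adjusted p = 0.159).

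Hist1h4m had the largest SE of the H4 genes. It was at 64.7 and 67.3 CPM in control libraries, 11.4 CPM in mimic 3 and 111 CPM in mimic 4. Its near copy Hist1h4n was highest in mimic 3, where Hist1h4m was lowest, at 161, 120, 267 and 164 CPM. Their sum was 226 and 187 against 278 and 275 CPM, 1.34-fold higher with no overlap, while Hist1h4m alone had a log2 fold change of −0.11 ± 0.77 (adjusted p = 0.945).

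The linker histones gave a smaller difference than the core classes. The H1 sum was 1492 and 1154 CPM in control libraries and 1463 and 1448 CPM with the mimic, a 1.10-fold higher mean with overlapping groups, and the log2 ratio of the sums went from 0.14 to −0.035 without control 2. On the TPM scale the sums were 1073, 865, 1136 and 1204, 1.21-fold higher with no overlap. As a share of all histone CPM, which does not depend on library scaling, H1 took 24.4% and 23.2% in control libraries and 20.3% and 20.1% with the mimic. On the TPM scale the share was 7.91% and 7.62% against 6.76% and 6.55%. The groups did not overlap on either scale, and with 2 libraries a group the difference was not tested.

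The H1 genes also differed among themselves. Hist1h1b (H1.5), at chr13:21779883-21780625 on the minus strand, was at 114 and 115 CPM in control libraries and 190 and 179 CPM with the mimic. It was the 1 H1 gene that rose, with a log2 fold change of 0.68 ± 0.09 (adjusted p = 0.0143), and all windows of its transcript are unique. Hist1h1c (H1.2), the H1 gene with the highest mean TPM, was at 506 and 358 against 381 and 410 CPM, with overlapping groups (−0.13 ± 0.16, adjusted p = 0.665). Hist1h1e (H1.4) was at 416 and 337 against 400 and 386 CPM (0.06 ± 0.12, adjusted p = 0.787). Hist1h1d (H1.3) was at 386 and 294 against 408 and 404 CPM (0.25 ± 0.14, adjusted p = 0.294), and Hist1h1a (H1.1) at 69.5 and 50.1 against 84.6 and 68.9 CPM (0.36 ± 0.17, adjusted p = 0.242). Hist1h1c accounted for 33.9% and 31.0% of H1 CPM in control libraries and 26.1% and 28.3% with the mimic, and Hist1h1b for 7.67% and 9.98% against 13.0% and 12.4%. Hist1h1d and Hist1h1e, which hold the miR-181a-5p site, were not called in either direction.

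**Figure D3:**
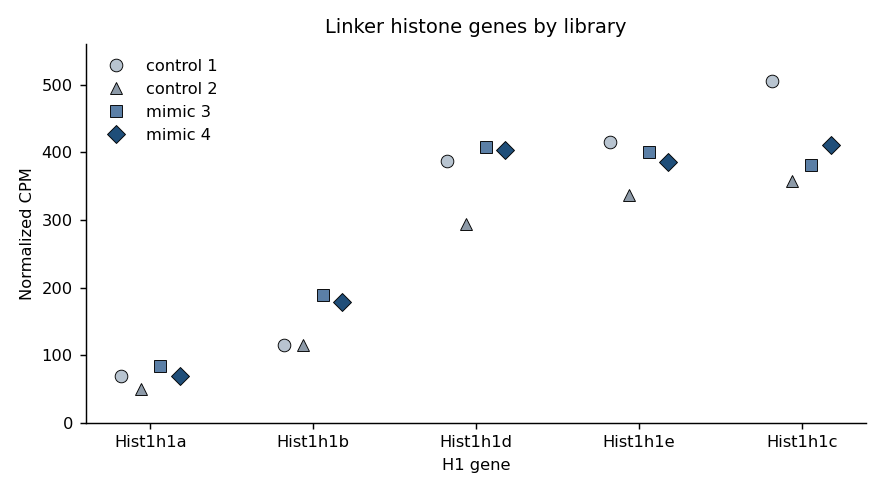
Normalized CPM of the 5 expressed H1 genes in each of the 4 libraries. Both Hist1h1b mimic points (190 and 179) stand well clear of both control points (114 and 115), Hist1h1d shows a narrower gap, while in Hist1h1c the highest point is control 1.

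Every cluster had a higher mean level with the mimic. The Hist1 sum was 5229 and 4261 against 6119 and 6057 CPM (1.28-fold), and 13 of its 51 tested genes rose, with a median log2 fold change of 0.46. The Hist2 sum was 808 and 656 against 1006 and 1050 CPM (1.40-fold), and 4 of 9 tested genes rose, with a median of 0.53. In Hist3, Hist3h2a was at 26.2 and 20.5 against 29.5 and 35.1 CPM (0.47 ± 0.16, adjusted p = 0.126) and Hist3h2ba at 0.55 and 0.32 against 0.77 and 1.07 CPM (1.05 ± 0.41, adjusted p = 0.173). Hist4h4, the lone member on chromosome 6, was at 48.8 and 38.3 against 57.8 and 56.3 CPM (0.39 ± 0.13, adjusted p = 0.133), and its expected counts were whole numbers, so its reads had not been divided. None of the 3 genes outside Hist1 and Hist2 overlapped between groups, and none passed the adjusted threshold. Over all tested genes, 28.9% had both mimic libraries above both controls.

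Within Hist1, the block at chr13:21715763-22043676 and the block at chr13:23531050-23764406 were also compared. In the first, with 23 tested genes, the sums were 1520 and 1262 against 2003 and 1960 CPM (1.42-fold, median log2 fold change 0.49, 5 rose). In the second, with 28 tested genes and with the abundant H1 genes Hist1h1c, Hist1h1d and Hist1h1e, the sums were 3710 and 2999 against 4116 and 4097 CPM (1.22-fold, median 0.40, 8 rose). Neither block overlapped between groups.

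H2A and H2B genes often lie head to head and share 1 promoter region. There were 12 such pairs with start sites 176 to 306 bases apart, 11 of them with both genes tested. In 10 of the 11 both genes had a log2 fold change above 0, where 95.2% of all tested members were above 0. The median difference between partners was 0.29. Members that are not partners were not compared, so these values do not set the pairs apart from other members. Hist1h2ag (0.86) and Hist1h2bj (0.74) are such a pair and both rose. Partners could also differ: Hist2h2ac rose (0.81) while its partner Hist2h2be was at 0.13, and Hist1h2ap and Hist1h2br differed by 1.89. That last gap rests on a trace transcript, as Hist1h2br was at 0.37 to 1.15 CPM with 13.6% of its windows unique. The difference between partners was not tested.

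The promoter windows of RefSeq on GRCm38.p6, from 250 bases before to 50 bases after each start, could be matched for 61 members and were searched on both strands for 4 strings, none of which contains another. CCAAT was present in all 5 H1, 18 H2A, 16 H2B and 10 H3 promoters matched but in 3 of 12 H4 promoters, against 37.4% of all 32851 promoters. TATAAA was present in 34 of the 61, or 55.7%, against 13.6% of all. ATTTGCAT, the octamer bound by Oct-1, was present in 7 of 18 H2A and 6 of 16 H2B promoters and in no H1, H3 or H4 promoter, against 1.74% of all. AAACACA, known as the H1 box, was present in 4 of 5 H1 promoters against 7.18% of all. Octamers are shown with 8 bases on either side for 2 promoters, to show the element that head-to-head partners share: Hist1h2bk at chr13:22035783-22035806, which is also the octamer of Hist1h2ah on the other strand, and Hist1h2bg at chr13:23571333-23571356, which is also that of Hist1h2ae. Both are on the plus strand with the octamer in capitals. A match is a description of letters only.
Hist1h2bk: ttcactttATTTGCATacgaagtt
Hist1h2bg: agtcccttATTTGCATagaacctc

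The annotated 3′ end was set against the change. Members whose transcript ended at the stem-loop had a median log2 fold change of 0.55 (22 tested, 8 rose), and their summed level was 1.38-fold higher with the mimic. Members whose transcript ran more than 100 bases past it had a median of 0.43 (20 tested, 4 rose) and a sum that was 1.19-fold higher, at 2680 and 2122 against 2843 and 2853 CPM. This group holds Hist1h1c, Hist1h1d and Hist1h1e, which make up much of that sum. Members with no match in the transcript had a median of 0.49 (21 tested, 5 rose) and a sum 1.40-fold higher.

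The members share much of their sequence, and the deposited expected counts divide shared reads between genes by an estimate. Only 5 of the 67 members had whole counts in all 4 libraries (within 0.001), against 10049 of the 17155 tested genes. The median member had 62.9% of its 100-base windows in no other gene, 28 members had less than 50%, and 5 had none (Hist2h2aa1, Hist2h2aa2, Hist2h2bb, Hist2h3b and Hist2h3c1). Members with at least 50% unique windows had a median log2 fold change of 0.43 (36 tested, 9 rose), and those below 50% a median of 0.54 (27 tested, 8 rose). Across the 63 tested members the fold change had a Spearman correlation of −0.24 with the unique share, 0.28 with the GC content of the transcript, −0.24 with its length and −0.17 with the mean TPM. These are descriptions across genes that share reads and libraries.

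**Figure D4:**
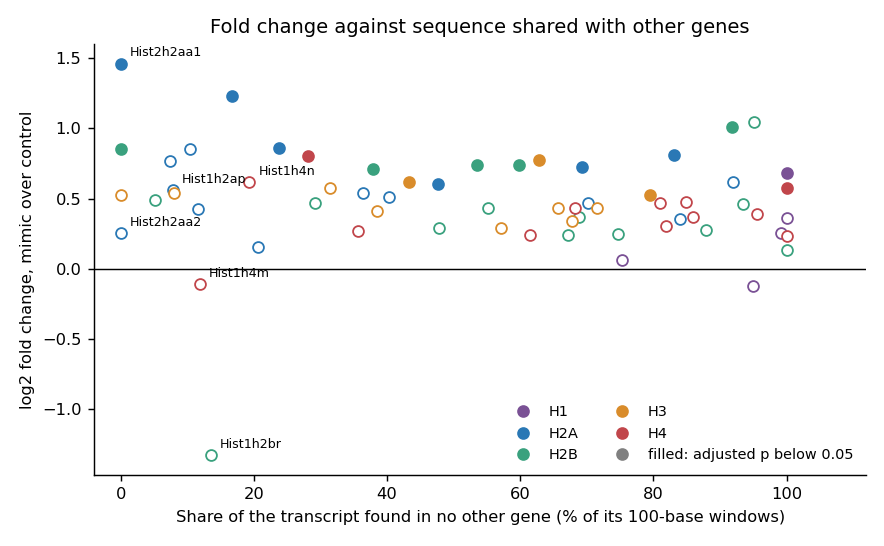
Log2 fold change of each tested histone gene against the percentage of 100-base windows of its transcripts that occur in no other gene, coloured by class, with filled points for an adjusted p below 0.05. The widest spread, from −1.33 for Hist1h2br to 1.46 for Hist2h2aa1, is at the low end, and points with mostly unique sequence lie near or above 0.

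The genes that make and handle histone mRNA were mostly above 0, and few were called. The list for histone transcription and 3′ end processing includes the cell cycle genes Cdk2, Ccne1, Ccne2 and E2f1. It shares Slbp, Ccne1 and Ccne2 with the DNA replication and S phase list, so the Ccne2 call appears in both. Of its 30 genes, 29 were tested, 25 were above 0, the median log2 fold change was 0.18 and 1, Ccne2, rose. At an unadjusted p below 0.05, 12 were higher and 0 lower (41.4% higher, against 11.8% of all tested genes), and 21 had both mimic libraries above both controls (72.4%, against 28.9%). Among these were Cpsf2, of the cleavage complex, at 0.51 ± 0.12 (adjusted p = 0.0651), and Ncbp1, of the cap-binding complex, at 0.74 ± 0.21 (adjusted p = 0.0927), both named after their values were seen. Npat, the histone-specific coactivator that cyclin E-Cdk2 activates, was at 36.8 and 39.1 against 49.8 and 44.1 CPM (0.31 ± 0.11, adjusted p = 0.150). Casp8ap2, the FLASH protein that works with it at histone loci, was at 33.6 and 36.04 against 54.0 and 46.4 CPM (0.53 ± 0.12, adjusted p = 0.0548). Neither overlapped between groups, and neither was called. Slbp, which binds the stem-loop, was at 71.9 and 66.0 against 79.5 and 76.2 CPM (0.18 ± 0.10, adjusted p = 0.306).

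The other processing genes named by rule were not called. Lsm10 and Lsm11, subunits of the U7 particle, had log2 fold changes of 0.30 ± 0.18 (adjusted p = 0.335) and 0.09 ± 0.12 (adjusted p = 0.700). Zfp473, which binds the U7 complex, had −0.01 ± 0.22 (adjusted p = 0.976), and Eri1, an exonuclease that trims and degrades histone mRNA, 0.17 ± 0.10 (adjusted p = 0.306).

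Of 29 histone chaperones and import factors, all tested, 22 were above 0 with a median of 0.20. By edgeR none rose and 1 fell, where 1.28% and 2.29% of all tested genes did. At an unadjusted p below 0.05, 9 were higher (31.0%, against 11.8% of all tested genes) and 1 lower (against 13%). Rbbp7, a histone-binding subunit of several chromatin complexes, was at 978 and 826 CPM in control libraries and 341 and 453 CPM with the mimic (−1.18 ± 0.16, adjusted p = 0.0145). Nasp, which stores H3-H4, had 0.24 ± 0.10 (adjusted p = 0.193), and Chaf1a, the large subunit of the replication-coupled assembly factor CAF-1, 0.31 ± 0.11 (adjusted p = 0.153). Hat1, which acetylates new H4, had −0.07 ± 0.10 (adjusted p = 0.689).

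Replacement variants gave a median log2 fold change of 0.16, with 7 of 10 tested genes above 0 (70%, against 48.6% of all tested genes). At an unadjusted p below 0.05, 2 were higher (20%, against 11.8% of all tested genes) and 0 lower. Both mimic libraries lay above both controls for 6 of them (60%, against 28.9%). By edgeR 1 rose and none fell, where 1.28% and 2.29% of all tested genes did. H2afz, which encodes H2A.Z, rose, at 155 and 166 against 260 and 251 CPM (0.67 ± 0.09, adjusted p = 0.0163). H2afx, the source of H2A.X, had 0.21 ± 0.09 (adjusted p = 0.213). The H3.3 genes H3f3a and H3f3b had 0.19 ± 0.09 (adjusted p = 0.259) and −0.16 ± 0.11 (adjusted p = 0.398), and H1f0, the linker histone of differentiated cells, −0.08 ± 0.12 (adjusted p = 0.736). Thus the H3 genes tied to replication were all above 0 while the H3.3 genes lay on either side of it, a contrast that was not itself tested.

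The DNA replication and S phase list gave a median of 0.22, with 35 of 38 tested genes above 0, and 3 rose. Of all tested genes, 1.28% rose. At an unadjusted p below 0.05, 16 of the list were higher (42.1%, against 11.8% of all tested genes) and 0 lower. Mcm2, a subunit of the replicative helicase, was at 62.2 and 63.7 against 93.0 and 86.9 CPM (0.51 ± 0.10, adjusted p = 0.0369). Fen1, the flap endonuclease of Okazaki fragment maturation, was at 37.5 and 43.5 against 66.7 and 57.4 CPM (0.61 ± 0.12, adjusted p = 0.0460). Ccne2, cyclin E2, was at 12.8 and 15.5 against 27.8 and 23.3 CPM (0.85 ± 0.15, adjusted p = 0.0340). The 6 markers of cycling cells had a median of 0.04 and none was called by edgeR. At an unadjusted p below 0.05, 1 of them was higher (16.7%, against 11.8% of all tested genes). Mki67, which marks all cycling phases, was at 742 and 783 against 802 and 715 CPM (−0.01 ± 0.11, adjusted p = 0.974). In the epithelial marker list 1 gene rose and 1 fell. Cdx1, an intestinal transcription factor named after its value was seen, was at 97.4 and 89.7 against 134 and 125 CPM (0.47 ± 0.10, adjusted p = 0.0477). Lgr5, the crypt stem cell receptor, fell, from 401 and 312 to 97.99 and 176 CPM (−1.38 ± 0.26, adjusted p = 0.0369), while Olfm4, another crypt stem cell marker, was at 570 and 227 against 400 and 531 CPM (0.22 ± 0.36, adjusted p = 0.742). The part of any of these in the histone result was not tested.

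Other RNAs without a poly(A) tail lay mostly below 0. Of 8 tested, 2 were above 0, the median log2 fold change was −0.23 and none was called by edgeR (2 were by DESeq2). At an unadjusted p below 0.05, 3 were lower and 0 higher, against 13% and 11.8% of all tested genes. Their summed level was 41227 and 36244 CPM in control libraries and 31445 and 28705 CPM with the mimic. The signal recognition particle RNA genes Rn7s1 and Rn7s2 had identical counts in the tables and a log2 fold change of −0.52 ± 0.19 each (adjusted p = 0.157). Rpph1 (0.01) and Rnu12 (0.06) were not below 0, and Rn7sk overlapped between groups.

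**Figure D5:**
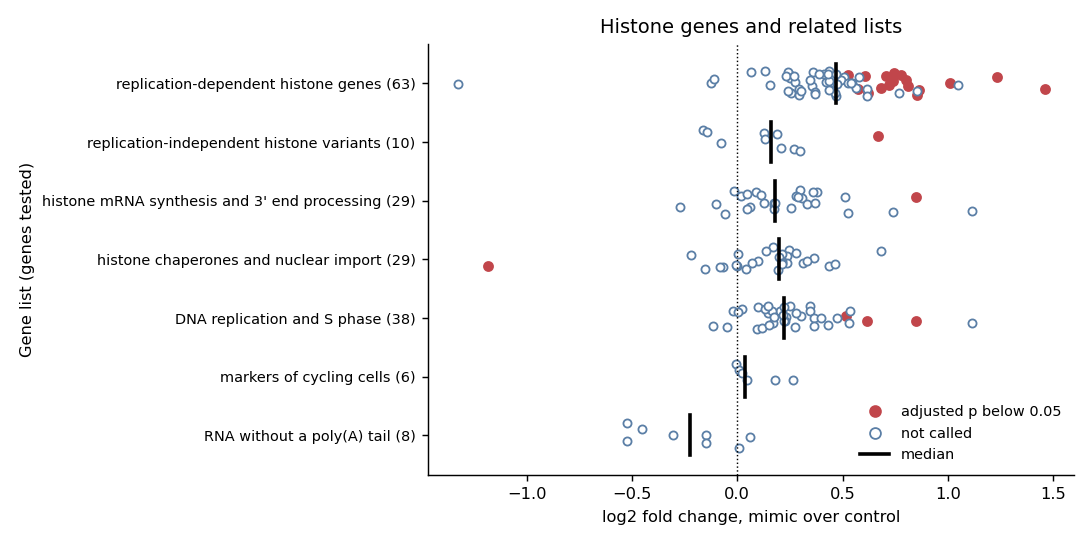
Log2 fold change (mimic over control) of every tested gene in the histone family and in 6 related lists, with filled points for an adjusted p below 0.05 and a black bar at each median. The histone median of 0.47 lies to the right of the medians of the replication list (0.22), the processing list (0.18) and the cycling markers (0.04), and the list of RNAs without a tail lies to the left of 0 (−0.23).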

How the data were processed

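Total RNA from 4 organoid cultures (2 control, 2 mimic) was sequenced. Per the labels, the authors used Trimmomatic and RSEM on GRCm38; software versions and the annotation release are not given in the sources used here. The deposited tables hold RSEM expected counts (estimated counts, not whole) and TPM made by the authors. They do not mention strand. Overlapping genes such as Hist1h2be and Hist1h1e, which are both on the minus strand, were counted as listed.

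In all, 3 columns of the tables matched no labelled library and were not used. Expected counts were rounded, filtered with filterByExpr and scaled with TMM factors, and the quasi-likelihood F test of edgeR (version 4.0.16, under R 4.3.3) was adjusted by Benjamini-Hochberg over 17155 genes, with calls at an adjusted p below 0.05. SE is the log2 fold change divided by the root of F, and CPM is on TMM-corrected library sizes. Library totals were 38111731, 31709196, 31104884 and 35353035 counts. Limma 3.58.1 on log2(TPM + 1) or log2(TPM + 0.1) and DESeq2 1.42.0 were alternatives. In simulated data for this comparison with 16822 genes, 70% of 2-fold and 91% of 4-fold changes were recovered. Stem-loops, target sites and 100-base windows were read from GENCODE M21 transcripts.

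The members and all lists were chosen with earlier results of these data known. Named genes were every called member, the 3 of highest mean TPM and the extremes of each class (mean of at least 100 counts), members of clusters of up to 3, a set of histone-handling genes, and list genes called with a fold change of at least 2. Other genes were named after their values were seen.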

Additional observations from a re-analysis of the deposited data

How the results depend on the processing

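The median log2 fold change of the members stayed above that of all tested genes in all 17 alternatives, by 0.33 to 0.63. The count of members called higher depended on the test. It was 17 by the quasi-likelihood test and also with its robust form, its legacy form, RLE factors and a GC and length correction chosen after seeing the data. It was 29 by edgeR's likelihood-ratio and exact tests and 31 by DESeq2, where 4.62%, 4.44% and 2.18% of all tested genes were called higher. With no low-count filter it was 9 and by limma on log2(TPM + 1) it was 5, where 0.229% and 0.228% were called higher. By limma on log2(TPM + 0.1), and on log2(TPM + 1) with no filter, it was 0. These 2 settings called only 27 and 2 of all tested genes in either direction. In them 44 and 36 members were higher at an unadjusted p below 0.05. Leaving out 1 library gave 14 to 35. Members called lower numbered 0, but 1 by the likelihood-ratio and exact tests and 0 to 1 with 1 library left out, each also past a fold change of 2. Those called higher past a fold change of 2 numbered 3, and 0 in the last 2 limma settings. The cause of these differences was not tested.

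With 1 library left out the median log2 fold change of members ran from 0.31 (without control 2) to 0.63 (without control 1), and the log2 ratio of summed levels from 0.24 to 0.53. By class it ran from −0.035 to 0.33 for H1 (the sign turned without control 2), 0.35 to 0.69 for H2A, 0.34 to 0.63 for H2B, 0.33 to 0.65 for H3, and by cluster 0.22 to 0.51 for Hist1, 0.35 to 0.65 for Hist2 and 0.22 to 0.58 for Hist4. With only members of whole counts H1 stood at 0.36, which rests on Hist1h1a, a gene with overlapping groups that was not called. The other H1 member with whole counts, Hist1h1t, had no more than 2 counts in any library. The 5 other lists held 5 called genes. The count was 18 by the likelihood-ratio test, 17 by the exact test and DESeq2 and 0 in the 3 limma settings. With 1 library left out it ran from 2 to 21. Over all tested genes the quasi-likelihood test called 612 in either direction. The likelihood-ratio test called 1864, the exact test 1788, DESeq2 1293 and the 3 limma settings 75, 27 and 2. The list counts therefore moved with the number each test called over all genes. Of the 37 named members, 5 changed sign: Hist1h1c ran from −0.35 to 0.14 (above 0 without control 1) and Hist1h4m from −2.53 to 0.75 (above 0 without mimic 3) with 1 library left out, Hist1h1e was at −0.075, Hist1h2af at −0.015 and Hist2h2be at −0.021 without control 2, and Hist2h2be at −0.0078 without mimic 4. With 1 library left, a group was assumed to vary like the other. No paired analysis was possible because the control and mimic libraries share no replicate number.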
